A study of Mus musculus with 14 samples.

Results

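The Myc, Max and Mxd network was followed through 14 RNA sequencing libraries of sorted mouse hair follicle stem cells, the bulge cells from which a new hair cycle starts. It was taken as 10 listed genes, Mycn, Myc, Mycl, Max, Mxd1, Mxd3, Mxd4, Mxi1, Mnt and Mga, out of 34049 genes with any count. The list was named by hand, but Mycn was chosen by its measured counts, for a higher level at P20 in libraries labelled Irx5KO, so its levels at P20 and its changes with age, which rest on them, are described here without a test. All 10 genes were among the 24592 genes that passed the filter on low counts and were tested.

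Mice were 18 days old (P18) or 20 days old (P20) and labelled either Irx5KO, for loss of the transcription factor gene Irx5, or WT. P18 had 3 libraries of each label and P20 had 4. Their total of estimated counts ran from 13618367 in P20 Irx5KO 3 to 70083873 in P18 Irx5KO 3. Cells were sorted as CD34+ and Ly-6A/E-, and as positive for what the labels call CD45f. The knockout allele, whether it was lost in all tissues or in some, and whether libraries came from separate animals are not given in the sources used here, so p-values reflect only how far these libraries differ among themselves, possibly for technical reasons. A numeric code in the deposited data divided each age: at P18 it joined Irx5KO 1, WT 1 and WT 2 on one side and Irx5KO 2, Irx5KO 3 and WT 3 on the other, and at P20 it joined the libraries numbered 1 and 2 of both labels and those numbered 3 and 4 of both labels. What the code marks is not given. The data of P18 WT 3 also carry the word het, and the label WT of its title was used. Cd34 was present in every library, and the summed level of 11 bulge stem cell markers ran from 11726 to 28086 CPM, counts scaled to a common library total.

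MYC, MYCN and MYCL are transcription factors that bind DNA only as pairs with MAX, at sites known as E-boxes, and raise transcription of genes for ribosome assembly, metabolism and cell division. The proteins of Mxd1, Mxd3, Mxd4 and Mxi1, with those of Mnt and Mga, also pair with MAX but recruit repressors to the same sites, so the balance of both sides is thought to set the output. In hair follicles MYC is known as a driver of stem cell exit into proliferation, and MYCN as a factor of growing epithelium and of embryonic progenitors.

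Promoter sequences are shown for the members whose start regions held a canonical E-box, the letters of a MYC and MAX site, or the letters of a site for E2F, the factor family of S phase genes. They come from RefSeq on the GRCm38.p6 build, from 250 bases before to 50 bases after the start, and are written 5′ to 3′ on the strand of the gene with the matches in capitals. Promoters were matched for 9 of the 10 members, 11 in all because Mxi1 had 3 starts, and none for Myc. The motifs were chosen after the members' values had been seen. Capitals mark CACGTG in the first 3 sequences and TTTGGCGC or TTTCGCGC, on either strand and partly overlapping, in the last.
Max, chr12:76962199-76962498, minus strand: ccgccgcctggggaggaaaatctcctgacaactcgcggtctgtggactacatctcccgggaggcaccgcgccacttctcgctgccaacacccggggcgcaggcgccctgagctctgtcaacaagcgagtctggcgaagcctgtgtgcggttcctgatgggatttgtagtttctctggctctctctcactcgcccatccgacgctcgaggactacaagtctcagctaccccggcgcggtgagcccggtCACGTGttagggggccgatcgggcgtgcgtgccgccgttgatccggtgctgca
Mnt, chr11:74830674-74830973, plus strand: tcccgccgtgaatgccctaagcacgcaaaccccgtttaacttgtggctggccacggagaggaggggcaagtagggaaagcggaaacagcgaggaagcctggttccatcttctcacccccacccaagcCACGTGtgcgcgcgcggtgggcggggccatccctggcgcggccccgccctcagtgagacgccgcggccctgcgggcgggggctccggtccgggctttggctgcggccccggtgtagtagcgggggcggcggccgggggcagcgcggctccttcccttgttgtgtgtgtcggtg
Mxd4, chr5:34187661-34187960, minus strand: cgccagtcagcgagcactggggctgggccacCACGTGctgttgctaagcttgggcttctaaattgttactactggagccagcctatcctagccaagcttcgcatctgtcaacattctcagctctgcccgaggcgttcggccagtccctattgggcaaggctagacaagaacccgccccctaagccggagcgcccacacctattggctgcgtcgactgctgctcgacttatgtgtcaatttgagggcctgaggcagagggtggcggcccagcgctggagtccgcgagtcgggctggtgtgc
Mycn, chr12:12941787-12942086, minus strand: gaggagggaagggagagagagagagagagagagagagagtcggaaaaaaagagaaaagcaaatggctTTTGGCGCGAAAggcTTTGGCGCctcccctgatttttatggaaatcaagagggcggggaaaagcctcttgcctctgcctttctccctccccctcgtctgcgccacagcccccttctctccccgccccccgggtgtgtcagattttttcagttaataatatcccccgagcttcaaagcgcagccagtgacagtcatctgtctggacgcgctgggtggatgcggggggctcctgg

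The E-box began 3 bases before the start of Max, 123 before that of Mnt and 219 before that of Mxd4. It lay in 3 of the 11 member promoters, and in 7.15% of all 32851 promoters of the same length. Letters of an E2F site, searched as TTTCCCGC, TTTGGCGC and TTTCGCGC on both strands, lay in 1 of the 11 member promoters. That was Mycn, where matches began 183, 179 and 168 bases before the start and the first pair overlapped. Of all promoters, 1.84% held one of these letters. A match describes the sequence and does not show that a factor was bound there.

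Irx5 itself was checked first. At P18 the 3 Irx5KO libraries had 48.0, 70.6 and 73.4 CPM, and the 3 WT libraries had 93.8, 109 and 132 CPM, with no overlap. The exact two-sided permutation p was 0.1, the smallest that 3 against 3 allows. At P20 it was 30.0 and 18.1 CPM in Irx5KO 1 and 2 against 108 and 93.4 CPM in WT 1 and 2. In the libraries numbered 3 and 4 the order was the opposite, 181 and 170 CPM in those labelled Irx5KO against 33.3 and 37.6 CPM in those labelled WT. Over all P20 libraries the exact two-sided permutation p was 0.629. Directions drawn from P20 libraries 3 and 4 therefore go by labels that the level of Irx5 contradicts, and each is given apart from libraries 1 and 2. Within P20 libraries 3 and 4 Irx5 was higher by 2.31 ± 0.27 (log2, SE) in those labelled Irx5KO, with an edgeR adjusted p of 0.000147. Within libraries 1 and 2 the difference was -2.06 ± 0.27 (edgeR adjusted p = 0.00179). At P18 it was -0.98 ± 0.88 and did not pass (edgeR adjusted p = 0.919).

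Mki67, a marker of dividing cells, differed in the same libraries. It was at 14.1 to 36.3 CPM in every P18 library. At P20 it stood at 18.5 and 14.5 CPM in Irx5KO 1 and 2, at 1252 and 1419 CPM in Irx5KO 3 and 4, at 429 and 227 CPM in WT 1 and 2, and at 10.5 and 3.75 CPM in WT 3 and 4. The P20 libraries with a high Mki67 were thus Irx5KO 3, Irx5KO 4, WT 1 and WT 2, which were also the P20 libraries with a high Irx5. In bulk samples, more cells of a dividing state and more RNA of the gene in each cell cannot be told apart.

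Compared per transcript length, in TPM summed over coding and non-coding transcripts, Myc was by far the most abundant member. Its mean over the 14 libraries was 348 ± 207 TPM (SD, n = 14). A middle group followed, with Mxd4 at 57.1 ± 16.9, Mxi1 at 54.5 ± 18.7, Max at 51.3 ± 17.7, Mxd1 at 39.9 ± 16.4, Mnt at 37.1 ± 11.5 and Mga at 24.6 ± 6.71 TPM. Neighbours from Mxd4 to Mnt differed by less than the SD of either, and Mga lay further below Mnt than the SD of either. Mycn at 5.29 ± 5.38, Mxd3 at 4.06 ± 6.32 and Mycl at 3.27 ± 2.75 TPM were the lowest, and their order among themselves lay within their spread.

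**Figure D1:**
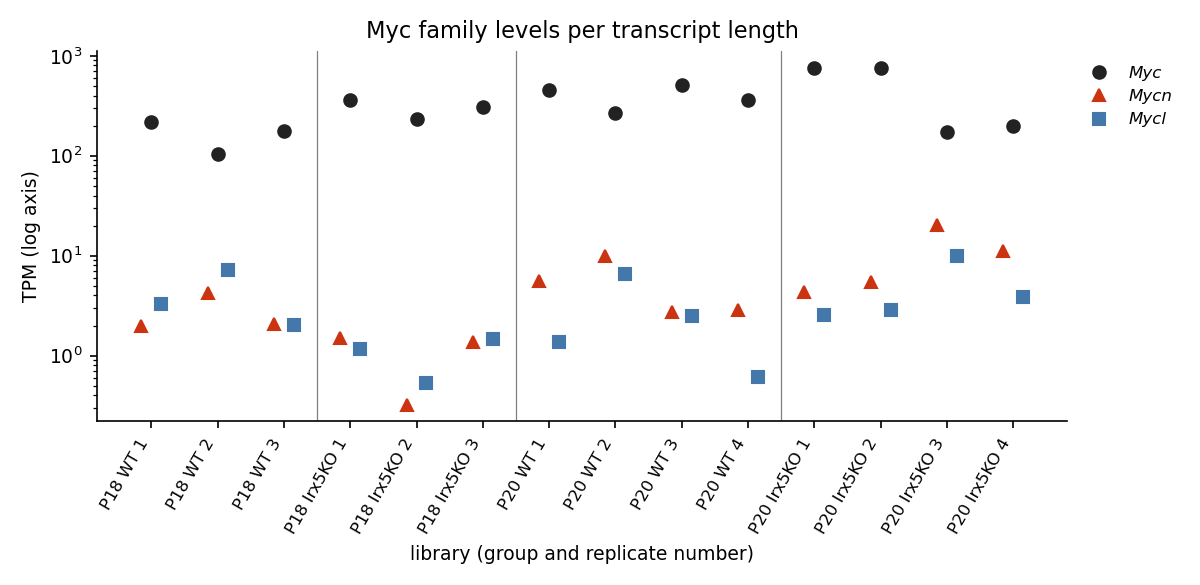
TPM on a log axis of Myc (circles), Mycn (triangles) and Mycl (squares) in each of the 14 libraries, with lines between the groups. Myc lies above Mycn in every library, by 8.42 times in P20 Irx5KO 3 and by 712 times in P18 Irx5KO 2, and the distance is smallest in P20 Irx5KO 3 and 4.

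Within the Myc family, Myc held between 85.0% and 99.6% of the summed TPM. The share of Mycn was 10.1% in P20 Irx5KO 3 and 5.27% in P20 Irx5KO 4, and at most 3.63% in the other 12 libraries. At 8.42 the ratio of Myc to Mycn was lowest in P20 Irx5KO 3, and at 712 it was highest in P18 Irx5KO 2. The summed TPM of the Myc family, divided by that of the 6 repressor genes, ran from 0.606 in P18 WT 2 to 3.79 in P20 Irx5KO 1. At P18 this ratio was 1.56, 0.963 and 1.20 in Irx5KO and 1.04, 0.606 and 0.722 in WT, with overlapping ranges. At P20 it was above the highest P18 value in 5 of 8 libraries, at 3.79, 3.07, 1.01 and 1.21 in Irx5KO 1 to 4 and 2.50, 1.81, 2.22 and 1.43 in WT 1 to 4. The lowest P20 values were thus in Irx5KO 3 and 4, the libraries in which Mycn was highest. These sums take in non-coding transcripts. Coding transcripts held 100% of the Myc TPM, 93.8% to 100% for Mxi1 and 87.0% to 98.4% for Mxd4. They held 37.5% to 94.5% for Mnt, 38.5% to 80.3% for Mga, 16.0% to 34.9% for Mxd1 and 0% to 96.3% for Mxd3. The ratio therefore does not compare coding RNA alone.

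Mycn (chr12:12936093-12941914, mm10) was at its lowest at P18 and at its highest in P20 Irx5KO 3 and 4. It stood at 1.91, 0.698 and 2.33 CPM in P18 Irx5KO and at 3.15, 6.03 and 3.86 CPM in P18 WT. At P20 it was 10.5, 11.8, 48.6 and 30.9 CPM in Irx5KO 1 to 4 and 12.5, 22.7, 6.73 and 6.18 CPM in WT 1 to 4. On this scale every P20 library lay above every P18 library, but WT 4 at 6.18 CPM lay only just above P18 WT 2. The ages overlapped on other scales. Without TMM factors P20 WT 4 had 6.12 CPM and P18 WT 2 had 6.18, and in TPM P20 WT 3 and 4 were at 2.73 and 2.87 and P18 WT 2 at 4.19. These values rest on 37 to 706 estimated counts a library. Group means were 1.65 ± 0.848 CPM (SD, n = 3) in P18 Irx5KO, 4.35 ± 1.50 (n = 3) in P18 WT, 25.4 ± 18.01 (n = 4) in P20 Irx5KO and 12.0 ± 7.65 (n = 4) in P20 WT.

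Every P20 Irx5KO library of both codes lay above every P18 Irx5KO library in Mycn, in CPM and in TPM. What was not shared by both codes was the difference between labels at P20. As a description, labelled Irx5KO minus WT was 0.98 on the log2 scale over all P20 libraries, -0.66 in libraries 1 and 2 and 2.62 in libraries 3 and 4. Without libraries 3 and 4 the P20 value was -0.65. In both codes Mycn was higher in the pair of libraries that also had the higher Mki67 and the higher Irx5. The part of cell division in its level was not tested.

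**Figure D2:**
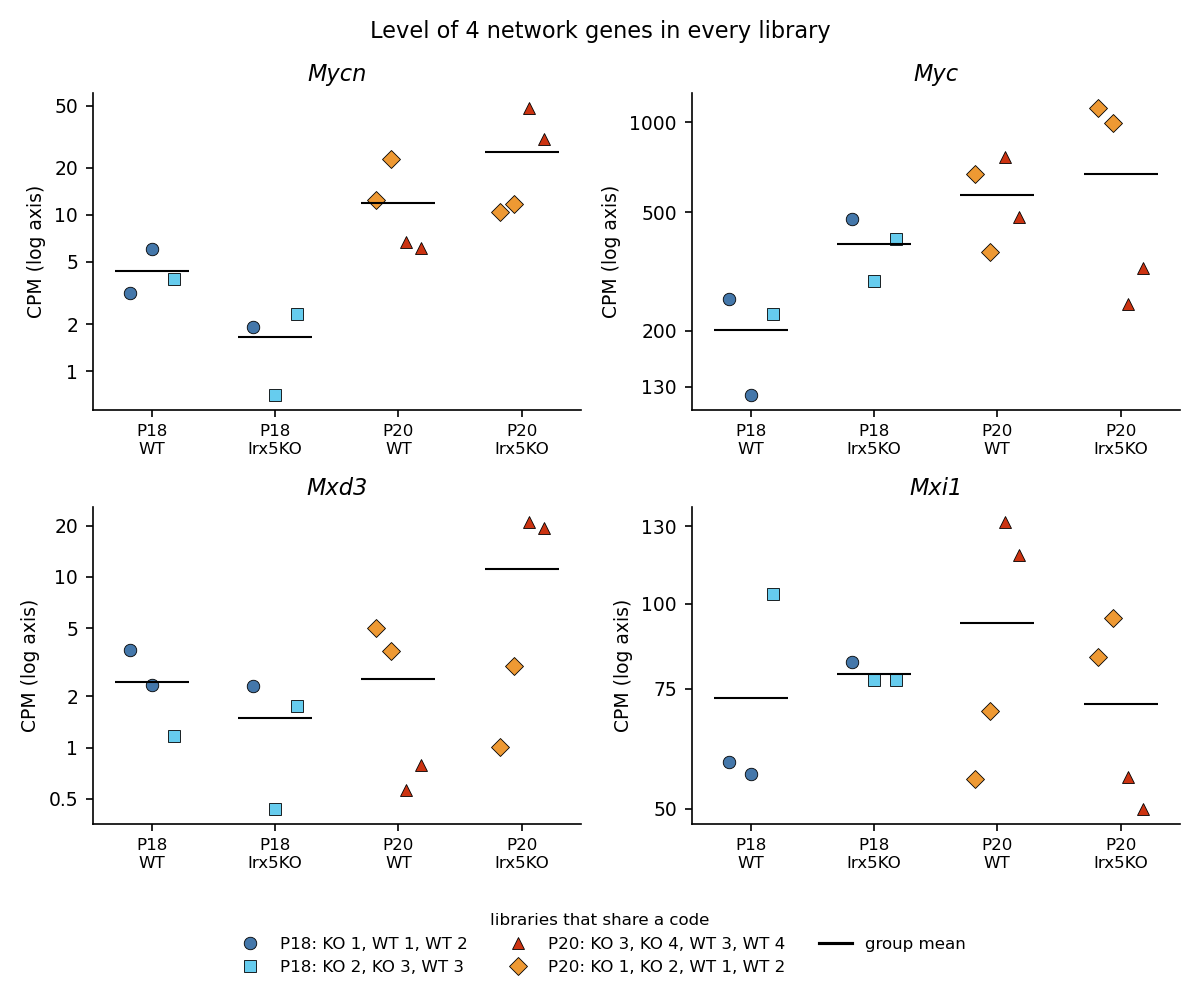
CPM on a log axis of Mycn, Myc, Mxd3 and Mxi1 in each library, by age and label, with symbols for libraries that share a code and a line at each group mean. In P20 Irx5KO the triangles (libraries 3 and 4) and the diamonds (libraries 1 and 2) do not overlap for any of the 4 genes; in P20 WT they overlap only for Myc.

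At P18, where Mycn could be tested, labelled Irx5KO minus WT was -1.31 ± 0.72 (log2, SE; adjusted p = 0.919). The ranges of Irx5KO and WT did not overlap, in either code, but the difference did not pass the test. From P18 to P20 the difference was 1.47 in WT and 3.94 in Irx5KO, both given as a description. Each age had its own codes, so age and code cannot be told apart.

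The genes whose pattern over the 14 libraries was most like that of Mycn were found by the root mean square difference of log2 CPM, after the mean of each gene had been removed. Among 13454 genes compared, the closest was Gmnn, which encodes geminin, an inhibitor of replication licensing, at 0.458. Others among the closest were Ruvbl1, an ATPase of chromatin remodelling complexes, at 0.637, and Fdps, an enzyme of isoprenoid synthesis, at 0.672. Wnt7b, a WNT ligand, had 0.719, Tbc1d31 0.737, Rangap1, the activator of the GTPase RAN, 0.771 and Hmgn5, a nucleosome binding protein, 0.779. The SD of log2 Mycn was 1.64 on the same scale. Gmnn ran from 0.0566 CPM in P18 Irx5KO 2 to 12.4 CPM in P20 Irx5KO 3, the libraries with the lowest and the highest Mycn. Of the other members, Mycl ranked 61, Mxd3 286 and Max 894 in likeness to Mycn, and Myc ranked 6289.

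Myc (chr15:61985391-61990374, mm10) did not follow Mycn. It stood at 476, 294 and 406 CPM in P18 Irx5KO and at 256, 122 and 229 CPM in P18 WT. The ranges did not overlap, and Irx5KO lay above WT in both codes. The difference was 0.97 ± 0.49 on the log2 scale with an edgeR adjusted p of 0.919, so it did not pass. At P20 Myc was at 1119 and 995 CPM in Irx5KO 1 and 2 and at 671 and 369 CPM in WT 1 and 2. In libraries 3 and 4 it was at 247 and 326 CPM in Irx5KO and at 764 and 480 CPM in WT, the opposite order. Neither difference passed alone, at 1.02 ± 0.38 in libraries 1 and 2 (adjusted p = 0.513) and -1.12 ± 0.38 in libraries 3 and 4 (adjusted p = 0.125). The difference between the codes did pass, at -2.14 ± 0.54 (adjusted p = 0.0310). It no longer passed when any one of Irx5KO 1, 2, 3 or 4, WT 2 or WT 3 was left out, with adjusted p from 0.0649 to 0.152, nor with TMM scaling over all genes, at 0.140. In both codes Myc was higher in the libraries with the lower Mki67 and the lower Mycn.

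Mycl (chr4:122995652-123002485, mm10) was low throughout. It was at 1.68, 1.41 and 3.13 CPM in P18 Irx5KO, at 3.12, 7.19 and 2.99 in P18 WT, at 1.67, 3.29, 15.7 and 13.1 in P20 Irx5KO 1 to 4 and at 4.30, 10.01, 5.40 and 1.57 in P20 WT 1 to 4. Its highest values were in P20 Irx5KO 3 and 4, as for Mycn. The difference in libraries 3 and 4 was 2.04 ± 0.89 and did not pass (edgeR adjusted p = 0.251), nor did the difference between codes at 3.57 ± 1.25 (adjusted p = 0.134), which passed in DESeq2 alone of the alternatives run (adjusted p = 0.0225). As little as 4.56% of its TPM came from coding transcripts in P20 Irx5KO 1, and all of it did in P20 WT 1, so the gene sum mixes kinds of transcript.

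Max (chr12:76937269-76962201, mm10), the partner that all members need, lay apart by age. It was at 30.4 to 43.6 CPM over the 6 P18 libraries and at 54.6 to 73.6 CPM over the 8 P20 libraries, with no overlap between ages. In TPM the ages did overlap, at 24.7 to 48.2 over the P18 libraries and at 29.8, 46.2 and 47.7 in P20 Irx5KO 4, Irx5KO 3 and WT 4. P20 minus P18 was 0.82 ± 0.21 in Irx5KO (edgeR adjusted p = 0.0686) and 0.67 ± 0.21 in WT (adjusted p = 0.256), so neither passed. DESeq2 called both, with adjusted p of 0.00104 and 0.00482, and so did limma voom, with 0.0191 and 0.000494. Those tools called far more genes in all: DESeq2 called 1391 in Irx5KO and 677 in WT, and limma voom 1291 in Irx5KO and 14333 of the 24592 in WT. Between labels Max differed by -0.12 ± 0.23 at P18, 0.15 ± 0.26 in P20 libraries 1 and 2 and -0.18 ± 0.26 in P20 libraries 3 and 4, and did not pass in any of them. With TMM scaling over all genes, or without P18 WT 3, the P18 value turned positive, at 0.24 and 0.10.

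Among the repressor genes, Mxd3 (chr13:55325168-55329823, mm10) was higher in P20 Irx5KO 3 and 4 than in P20 WT 3 and 4. Mxd3 is the Mxd gene known for expression in S phase cells, unlike its relatives, which are known from differentiating cells. It stood at 21.0 and 19.3 CPM in Irx5KO 3 and 4, against 0.566 and 0.787 CPM in WT 3 and 4, which rest on 17 and 13 counts. Elsewhere it lay between 0.434 CPM in P18 Irx5KO 2 and 5.02 CPM in P20 WT 1. In P20 libraries 1 and 2 it was at 1.01 and 2.99 CPM in Irx5KO and at 5.02 and 3.71 CPM in WT. In libraries 3 and 4 the difference was 4.90 ± 1.04 (log2, SE; edgeR adjusted p = 0.0122), and between codes it was 6.03 ± 1.34 (adjusted p = 0.0144). The call in libraries 3 and 4 was lost without WT 3 (adjusted p = 0.178) or without WT 4 (0.101), which each left 1 WT library assumed to vary like the other groups. The difference between codes lost its call without Irx5KO 1 (0.101), WT 3 (0.120) or WT 4 (0.0688).

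Mxd3 overlaps Prelid1, a gene of mitochondrial lipid transport, on the opposite strand. Prelid1 had 38242 counts over all libraries against 1571 for Mxd3. The strand setting of the quantification is not stated, so reads of the overlap could not be assigned to one gene. Prelid1 was at 130 and 135 CPM in P20 Irx5KO 3 and 4 and at 57.8 to 96.6 CPM in the other 12 libraries. Its part in the value of Mxd3 was not tested.

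Mxi1 (chr19:53310518-53375810, mm10), a repressor gene of differentiated cells also known as a hypoxia target, was lower in P20 Irx5KO 3 and 4 than in P20 WT 3 and 4. It was at 55.6 and 49.9 CPM in Irx5KO 3 and 4 and at 132 and 118 CPM in WT 3 and 4. In libraries 1 and 2 it was at 83.6 and 95.4 CPM in Irx5KO and at 55.3 and 69.7 CPM in WT, the other order. At P18 it was at 82.0, 77.2 and 77.3 CPM in Irx5KO and at 58.6, 56.3 and 103 CPM in WT, and the ranges overlapped. The difference in libraries 3 and 4 was -1.24 ± 0.23 (edgeR adjusted p = 0.00530) and that in libraries 1 and 2 was 0.52 ± 0.23 (adjusted p = 0.688). Between codes it was -1.76 ± 0.33 (adjusted p = 0.00400). The call in libraries 3 and 4 was lost without Irx5KO 4 (0.0562) or without WT 3 (0.0713), while that of the difference between codes held under each of the 23 alternatives run. Of the 9 Mxi1 transcripts, the pair that begins upstream held 12.2% to 48.6% of its TPM, the lowest in P18 Irx5KO 2 and the highest in P20 Irx5KO 3.

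Mga (chr2:119897228-119969581, mm10), which encodes a large MAX partner and scaffold of a Polycomb complex, PRC1.6, moved like Mxi1. It was at 98.9 and 105 CPM in P20 Irx5KO 3 and 4 against 177 and 167 CPM in WT 3 and 4, and at 141 and 135 CPM in Irx5KO 1 and 2 against 109 and 86.9 CPM in WT 1 and 2. The pairs did not overlap in either code and stood in opposite order. In libraries 3 and 4 the difference was -0.76 ± 0.23 and did not pass (edgeR adjusted p = 0.0743). Between codes it was -1.25 ± 0.32 and passed (adjusted p = 0.0320), but it was lost under TMM over all genes (0.253), with median-ratio scaling (0.0577), with no filter (0.0560), with the replicate block (0.0521) and without any one of 7 of the 8 P20 libraries. At P18 Mga lay at 158 to 172 CPM in Irx5KO and at 138 to 163 CPM in WT.

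Mxd1, Mxd4 and Mnt did not pass in any comparison. Mxd1 (chr6:86647042-86669161, mm10), a repressor gene of terminal differentiation, was at 79.3, 80.3 and 114 CPM in P18 Irx5KO and at 76.5, 46.4 and 52.7 CPM in P18 WT, without overlap. The P18 difference was 0.62 ± 0.36 (edgeR adjusted p = 0.919). At P20 Mxd1 was at 94.1, 97.3, 47.9 and 31.3 CPM in Irx5KO 1 to 4 and at 76.0, 42.7, 59.2 and 46.9 CPM in WT 1 to 4. Its difference between codes was -1.11 ± 0.47 (adjusted p = 0.247). Mxd4 (chr5:34173883-34187720, mm10) ran from 91.8 CPM in P20 WT 1 to 216 CPM in P20 WT 4, and its largest difference between labels was -0.38 ± 0.25 at P18 (adjusted p = 0.919). Mnt (chr11:74830920-74845725, mm10), the repressor expressed in most cell types, ran from 51.9 CPM in P18 WT 2 to 127 CPM in P18 Irx5KO 1.

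**Figure D3:**
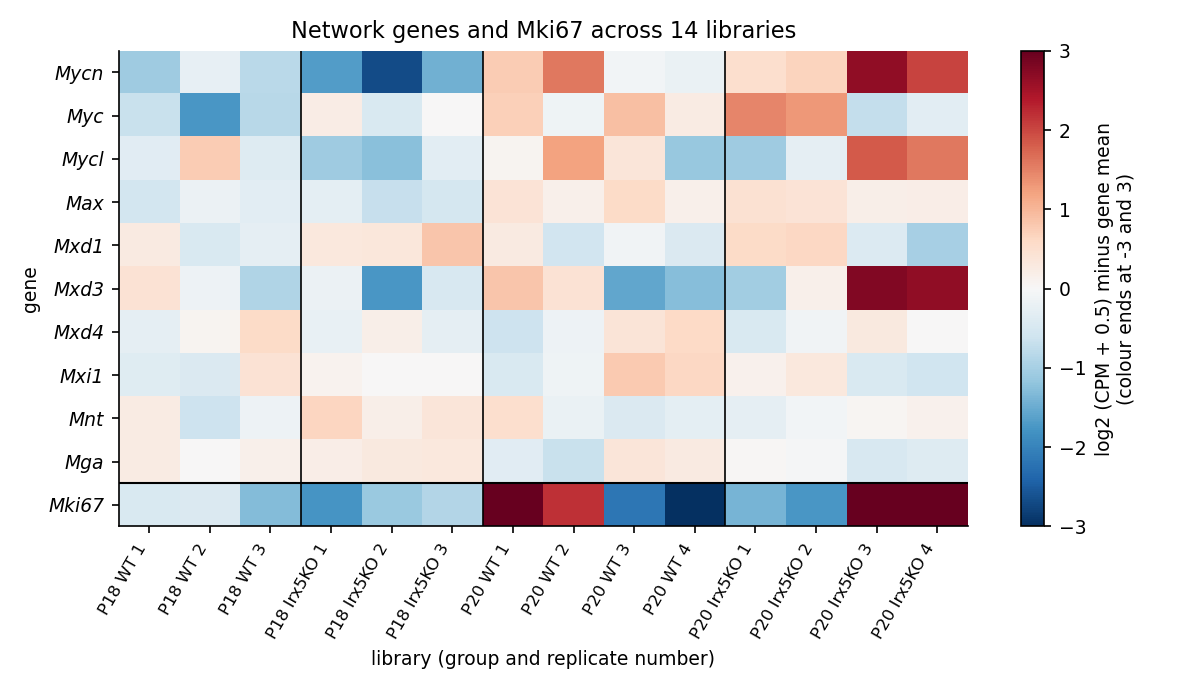
Log2 (CPM + 0.5) of the 10 members and of Mki67 in each library, as the difference from the mean of the gene over the 14 libraries, with colours ending at -3 and 3. Mycn, Mycl and Mxd3 are darkest red in P20 Irx5KO 3 and 4, where Mki67 is at 1252 and 1419 CPM, and Max is pale blue at P18 and pale red at P20.

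Counted over the network, members passed only where the P20 codes were set apart. At P18 none of the 10 passed, and 0% of the 24592 genes did. At P20 over both codes none of the 9 members other than Mycn passed, again with 0% of all genes. The counts at an unadjusted p under 0.05 were 977 and 1082 genes, DESeq2 called 23 and 104 genes and limma voom 1 and 56, in each case with no member among them. The edgeR fit of these comparisons took the P20 difference as the same in both codes. Where the codes differ, this widens the spread of a gene, also for P18. For Irx5 the SE was 0.88 at P18 in that fit, and 0.27 in P20 libraries 1 and 2 in the fit by code. A lack of calls there does not show that the labels did not differ. In P20 libraries 1 and 2 none of 9 members passed, where 0.655% of all genes did. In libraries 3 and 4, 2 of 9 passed, Mxd3 higher and Mxi1 lower, where 4.83% of all genes did. For the difference between codes 4 of 9 passed, Mxd3 upward and Myc, Mxi1 and Mga downward, where 5.17% of all genes did. From P18 to P20 none of 9 members passed in Irx5KO, where 1.57% of all genes did, and none of these 9 in WT, where 0.195% did. The P20 comparisons of libraries 3 and 4 and of the difference between codes share those libraries, and the 2 age comparisons share one estimate of the spread.

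**Figure D4:**
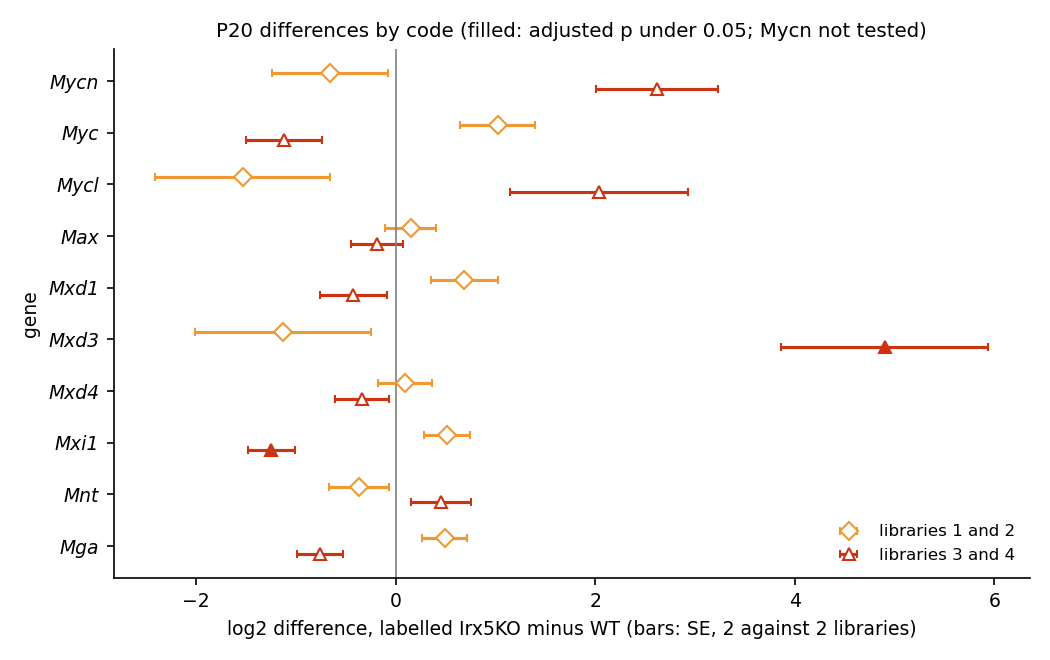
Log2 difference, labelled Irx5KO minus WT, of each member within the P20 codes, as the fitted value with its SE from 2 against 2 libraries. Diamonds are libraries 1 and 2 and triangles libraries 3 and 4; filled symbols, Mxd3 and Mxi1 in libraries 3 and 4, had an adjusted p under 0.05, and Mycn is shown without a test.

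In P18 WT 1 and WT 2, olfactory and vomeronasal receptor genes took 1.80% and 5.45% of counts. P20 WT 2 had 2.41%, and the other 11 libraries 0.102% to 0.611%. Without these 3 libraries the P18 value was -1.36 for Mycn and 0.61 for Myc, and neither passed. That value rests on P18 WT 3 as the one WT library left at P18, assumed to vary like the other groups.

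Known targets of MYC were counted next, in lists that had been chosen with earlier results of these libraries in view. Counts of genes that rose or fell are of those that passed. Among 33 nucleolar and ribosome assembly genes, 9 rose from P18 to P20 in Irx5KO and none fell, where 0.610% of all genes were higher and 0.960% lower. They included Nop56, a core protein of the box C/D snoRNP, at 1.61 ± 0.35 (log2, SE; edgeR adjusted p = 0.0307) and Nolc1, a nucleolar phosphoprotein, at 1.35 ± 0.28 (adjusted p = 0.0254). Nop16 rose by 1.43 and Ddx21, a nucleolar RNA helicase, by 1.05. The median over the list was 0.80, against -0.0032 for all genes tested and 0.03 for 10543 well expressed genes, those with a mean of at least 8 CPM. In WT the median was 0.55 and none passed, against -0.80 for all genes tested and 0.01 for well expressed genes, where 0.0691% of all genes were higher and 0.126% lower. Whether the age differences of Irx5KO and WT differ was not tested. The count of 9 depended on the scaling and on single libraries: with TMM over all genes none of the 33 passed, although the median stayed at 0.76, and 19 genes in all were higher and 82 lower, against 150 and 236 in the fit reported. None of the 33 passed without P18 Irx5KO 1, 2 or 3 in turn, and 2 to 6 passed without P18 WT 1 or 3, any one P20 Irx5KO library, or P20 WT 3 or 4; without P20 libraries 3 and 4 together, an alternative chosen after seeing the data, 7 rose.

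In P20 libraries 3 and 4, 2 of the 33 nucleolar genes rose and none fell, where 2.20% of all genes were higher and 2.64% lower. These were Nop56 at 1.14 ± 0.28 (edgeR adjusted p = 0.0309) and Rrp12, a ribosome export factor, at 1.41 ± 0.36 (adjusted p = 0.0358), and the list's median was 0.45 against 0 for all genes tested. In libraries 1 and 2 none of the 33 passed, the median was 0.21 against -0.34 for all genes tested and -0.05 for well expressed genes, and 28 were positive, where 0.138% of all genes were higher and 0.516% lower. With TMM over all genes none passed in libraries 3 and 4 and the median was 0.34. By label the nucleolar median was positive in both codes. The differences of Myc and, as a description, of Mycn changed sign between the codes. Ordered by Irx5 instead, the nucleolar median was lower in the higher-Irx5 libraries numbered 1 and 2 and higher in those numbered 3 and 4. Mycn was higher and Myc lower in the higher-Irx5 libraries of both codes. Whether the nucleolar genes followed Myc or Mycn was not tested.

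Of 24 genes of nucleotide and polyamine synthesis, 6 rose in P20 libraries 3 and 4 and none fell. Over all genes, 2.20% were higher there and 2.64% lower. Cad, the enzyme that starts pyrimidine synthesis, rose by 2.15 ± 0.39 (edgeR adjusted p = 0.00502), and Mthfd2, of mitochondrial folate metabolism, by 3.48 ± 0.78 (adjusted p = 0.0183). Nme1 rose by 2.58 and Pfas, of purine synthesis, by 1.80. The count was 1 without P20 WT 3, 3 without P20 WT 4 or P20 Irx5KO 4 and 4 without P20 Irx5KO 3. In libraries 1 and 2 none of the 24 passed and the median was -0.45, against -0.34 for all genes tested and -0.05 for well expressed genes. With age, the list's median from P18 to P20 was 0.67 in Irx5KO, with 22 of 24 positive, against -0.0032 for all genes tested. In WT it was 0.65, with 20 of 24 positive, against -0.80 for all genes tested and 0.01 for well expressed genes. Mthfd1, of cytosolic folate metabolism, was the one gene of this list to pass with age. It rose by 1.49 ± 0.23 in Irx5KO (edgeR adjusted p = 0.00544) and by 1.27 ± 0.23 in WT (edgeR adjusted p = 0.0408). With age, 0.610% of all genes were higher and 0.960% lower in Irx5KO, and 0.0691% higher and 0.126% lower in WT.

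Cell cycle targets differed in opposite directions by label in the P20 codes. In P20 libraries 3 and 4, 7 of 12 rose and none fell, with a median of 1.68, where 2.20% of all genes were higher and 2.64% lower. Mcm5, a subunit of the replicative helicase, rose by 5.13 ± 0.41 (edgeR adjusted p = 7.68e-06). E2f1 rose by 2.90, Mcm4 by 2.12 and Cdt1, a licensing factor, by 1.95. In libraries 1 and 2, 4 of the 12 fell and none rose, where 0.138% of all genes were higher and 0.516% lower. Among the 4 were Mcm5 at -2.61 ± 0.36 (edgeR adjusted p = 0.00270), Ccnd2 at -1.78 and Cdk4 at -1.23. In libraries 3 and 4 the count was 4 without P20 WT 3. In libraries 1 and 2 it was 0 without P20 Irx5KO 1 and 1 without P20 Irx5KO 2, P20 WT 1 or P20 WT 2, and it was 1 with TMM over all genes. Mitosis genes, which are not chosen as MYC targets, did the same: 15 of 16 rose in libraries 3 and 4 and 10 of 16 fell in libraries 1 and 2. In both codes the genes called in these lists were higher in the libraries with the higher Irx5 and Mki67. Their summed level ran from 20.7 CPM in P20 WT 4 to 3519 CPM in P20 Irx5KO 4. The part of cell division in the target lists was not tested.

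Genes that MYC is known to repress together with the factor MIZ1 stood the other way round. Of 10, 3 fell and none rose in P20 libraries 3 and 4, where 2.64% of all genes were lower and 2.20% higher. These were Cdkn1c, an inhibitor of cyclin-dependent kinases, at -2.88 ± 0.41 (edgeR adjusted p = 0.000697), Cdkn1a, a related inhibitor, at -1.91 ± 0.43 (adjusted p = 0.0238) and Ndrg1 at -2.14 ± 0.47 (adjusted p = 0.0239). Leaving out P20 Irx5KO 3, P20 Irx5KO 4 or P20 WT 3 in turn left 1 of the 3. Myc itself was lower in the libraries labelled Irx5KO of that code, at 247 and 326 CPM. In libraries 1 and 2, 1 of the 10 rose and none fell, where 0.138% of all genes were higher and 0.516% lower. This was Cdkn1c, at 3.12 ± 0.41 (edgeR adjusted p = 0.00179). Myc stood at 1119 and 995 CPM in Irx5KO 1 and 2. The part of Myc in the levels of these genes was not tested.

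**Figure D5:**
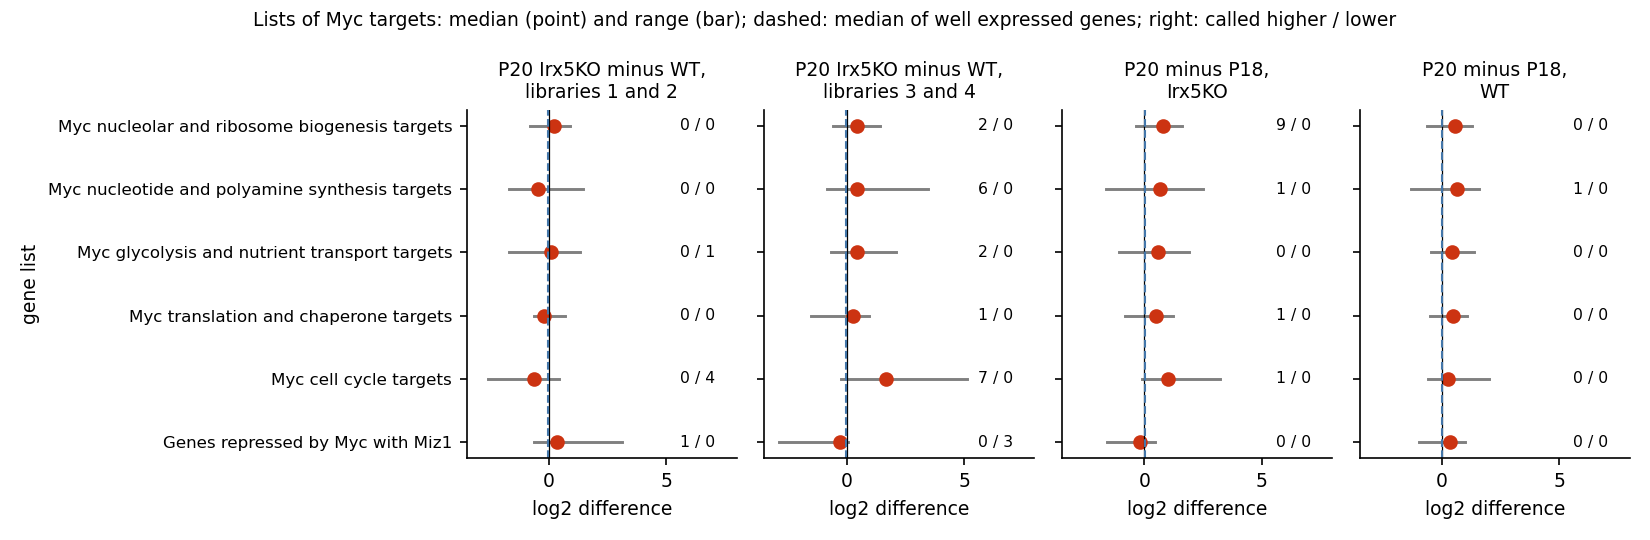
Log2 difference of 6 lists of MYC target genes in 4 comparisons, with the median of each list as a point, its range as a bar, the median of well expressed genes as a dashed line and the number called higher and lower at the right. The cell cycle list has 0 higher and 4 lower in P20 libraries 1 and 2 and 7 higher and 0 lower in libraries 3 and 4; the nucleolar list has 9 higher from P18 to P20 in Irx5KO, and 0 with TMM over all genes.

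Lists for glycolysis and for translation and chaperones held few calls. In P20 libraries 3 and 4 their medians were 0.46 and 0.29, against 0 for all genes tested, and from P18 to P20 in Irx5KO they were 0.60 and 0.51, against -0.0032. Of 14 glycolysis and transport genes, Eno1 and Gapdh rose in P20 libraries 3 and 4, by 2.09 and 1.06, and Eno1 fell by 1.71 in libraries 1 and 2. Both have near-identical copies in the genome, so their counts are uncertain. Of 14 translation and chaperone genes, Hspd1, a mitochondrial chaperone with copies of the same kind, rose by 0.95 in libraries 3 and 4, and Eif3b, a translation initiation subunit, rose by 1.04 from P18 to P20 in Irx5KO. Shares of all genes called higher and lower were 2.20% and 2.64% in libraries 3 and 4, and 0.138% and 0.516% in libraries 1 and 2. From P18 to P20 in Irx5KO they were 0.610% and 0.960%.

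Partners and regulators of the network were largely without calls. None of 5 genes of the Mlx branch, the related network that senses glucose, passed in any comparison. Of 12 PRC1.6 genes that work with MGA, Tfdp1, the DNA binding partner of E2F proteins, rose by 1.51 ± 0.34 in P20 libraries 3 and 4 (edgeR adjusted p = 0.0173) and Hdac2 by 1.07 ± 0.27 (adjusted p = 0.0324). Hdac2 was also the one of 11 co-repressor genes of the Mxd proteins and MNT to pass there. Of 15 co-activators of MYC, Actl6a rose by 1.22 in libraries 3 and 4, and Ruvbl1 rose by 2.50 from P18 to P20 in Irx5KO. Shares of all genes called higher were 2.20% in libraries 3 and 4 and 0.610% from P18 to P20 in Irx5KO.

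Of 15 genes known to act on the stability of the MYC proteins, 3 rose in P20 libraries 3 and 4. Aurka, the mitotic kinase that also shields MYCN from degradation, rose by 4.55 ± 0.85 (edgeR adjusted p = 0.00534). Cip2a, an inhibitor of the phosphatase PP2A, rose by 3.78 ± 0.53 (adjusted p = 0.000625), and Set, another such inhibitor, by 1.02 ± 0.23 (adjusted p = 0.0183). None fell, and none passed in libraries 1 and 2. Over all genes, 2.20% were higher and 2.64% lower in libraries 3 and 4, and 0.138% and 0.516% in libraries 1 and 2. Without P20 WT 3 the count of 3 was 1.

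Markers of other cells of skin also differed by label at P20, and several stood in opposite order between the codes. In libraries 3 and 4, 2.20% of all genes were higher and 2.64% lower. The summed level of 8 melanocyte genes was 76.5 and 81.7 CPM in Irx5KO 3 and 4 against 247 and 256 CPM in WT 3 and 4, and 112 to 253 CPM in the other 10 libraries. Mitf carried most of it, at 64.6 and 68.7 against 237 and 248 CPM, and Kit and Mlana were at 0 in Irx5KO 3 and 4 and at 1.20 CPM or below in WT 3 and 4. Dct, another enzyme of pigment synthesis, stood the other way, at 10.8 and 10.1 CPM in Irx5KO 3 and 4 against 5.03 and 2.79 in WT 3 and 4. Mitf was the 1 of 8 to pass, at -1.86 ± 0.29 (edgeR adjusted p = 0.00129), and Tyr, the enzyme of pigment synthesis, lay at 0.363 CPM or below in all 4 of these libraries. In libraries 1 and 2 the melanocyte sum stood in the other order, at 231 and 182 CPM in Irx5KO against 137 and 112 CPM in WT. Mitf again carried most of that sum, at 217 and 167 against 117 and 79.6 CPM. Dct stood at 5.58 and 5.74 CPM in Irx5KO 1 and 2 against 11.6 and 17.7 CPM in WT 1 and 2. Over the 8 genes 3 differences were positive and 5 negative there, with a median of -0.47. None of the 8 passed there. Of 11 bulge markers, Postn, a matrix protein, and Fgf18, a growth factor of the resting bulge, fell in libraries 3 and 4. Postn was at 1816 and 1039 CPM in Irx5KO 3 and 4 against 5224 and 5355 CPM in WT 3 and 4 (edgeR adjusted p = 0.00228), and Fgf18 at 5.02 and 1.71 against 28.7 and 74.3 CPM (adjusted p = 0.0372). Tbx1 and Lgr6, the 2 of 11 that were positive there, did not pass. In libraries 1 and 2 Postn and Fgf18 stood in the other order, and neither passed. Postn was at 3316 and 2769 CPM in Irx5KO against 1556 and 1201 CPM in WT, and Fgf18 at 26.5 and 13.6 against 3.54 and 8.04 CPM. The sum of 7 sebaceous genes was 501 and 411 CPM in Irx5KO 3 and 4 against 188 and 211 CPM in WT 3 and 4. Fasn, of fatty acid synthesis, and Scd1 carried most of it. Fasn was at 323 and 277 against 102 and 132 CPM and rose by 1.36, and Scd1 was at 154 and 102 against 62.5 and 60.6 CPM. Over the 7 genes 3 differences were positive and 3 negative, with a median of 0. In libraries 1 and 2 the sum was 612 and 207 CPM in Irx5KO against 554 and 350 CPM in WT. Of 6 fibroblast genes Pdgfra fell, and of 5 endothelial genes Kdr, which was at 0 in Irx5KO 3 and 4 and at 0.727 CPM or below in WT 3 and 4. Over the 14 libraries the sum of 10 leukocyte genes was 18.1 to 144 CPM and that of 5 endothelial genes 4.25 to 87.0 CPM. The sum of 8 suprabasal genes was 5639 CPM in P20 Irx5KO 1 and 793 to 2052 CPM in the others. Their part in the levels of the network was not tested.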

How the data were processed

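Per the labels' protocols, kallisto 0.46.2 assigned single-end reads of total RNA to transcripts; the submitters' processing notes also name the build mm10 and DESeq2. The authors deposited an estimated count and a TPM value for 118489 transcripts in each library, per the file headers. Of these, 116816 were matched by identifier to genes of GENCODE vM21 (mm10). The 1673 that were not, with 1.19% to 2.59% of counts, were left out. The annotation behind the quantification and its strand setting are not given in the sources used here.

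Estimated counts were summed per gene and rounded, and 24592 genes were kept by the expression filter of edgeR 4.0.16 (R 4.3.3). TMM factors were computed over the 10543 genes with a mean of at least 8 CPM. Robust quasi-likelihood fits over all 14 libraries gave the comparisons: labels within age with the code as a covariate, labels within each P20 code with the difference between codes, and age within label. P-values were Benjamini-Hochberg adjusted over all genes, with a threshold of 0.05. SE is the size of the difference over the square root of F and is approximate. The procedure was tested on simulated counts. The code was read from the deposited data and what it marks is not given.

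The members, gene lists, tests and the motifs were chosen with earlier results of these data known. Named genes were the 10 members, Irx5 and Mki67, up to 4 genes with the smallest p of each list and the 8 most like Mycn by log2 CPM with a prior count of 2, of which 1 is not reported here; other genes (Prelid1, and the markers Cd34, Kit, Mlana and Tyr) were named after their values were seen. Alternatives were TMM over all genes, median-ratio factors, no filter, a minimum of 1 CPM in 3 libraries, limma 3.58.1 voom with quality weights, DESeq2 1.42.0, a replicate block, no code term, fewer libraries and TPM. Same-numbered libraries at P18 deviated together, with correlations of 0.365, 0.152 and 0.289, so the numbers were taken to pair them. The fit reported held no term for these pairs, which entered only in the replicate block. Code was not removed before the correlations were taken, and the P18 libraries numbered 2 differ in code. Pairing and code are thus not separated at P18. At P20 the correlations were 0.04, 0.437, 0.180 and 0.304, one of them under the 0.1 required, and the numbers were not taken to pair libraries.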

Additional observations from a re-analysis of the deposited data

Results flagged for a closer look

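At P20 the difference between labelled Irx5KO and WT was itself different in the libraries numbered 1 and 2 and those numbered 3 and 4 for 4 of the 9 members tested, by the edgeR test of that difference. Subtracting the value in libraries 1 and 2 from that in libraries 3 and 4 gave -2.14 for Myc (adjusted p = 0.0310), 6.03 for Mxd3 (adjusted p = 0.0144), -1.76 for Mxi1 (adjusted p = 0.00400) and -1.25 for Mga (adjusted p = 0.0320), on the log2 scale with 2 against 2 libraries in each code. The code, the order of Irx5 against the labels and the level of Mki67 change together between these libraries and cannot be told apart. By Dixon's test no member had an outlying library in a group of 4, including Mnt in P20 WT, at 114 CPM in WT 1 and 58.9 to 69.4 CPM in the others.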

How the results depend on the processing

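Of the 9 or 10 members counted, none passed at P18 or at P20 over both codes under any alternative run. In P20 libraries 1 and 2, 1 passed with no filter (Myc). In libraries 3 and 4, where 2 passed in the fit reported, 4 passed with limma voom and 4 without the 3 receptor-rich libraries, and leaving out 1 library gave 0 to 3. For the difference between codes, where 4 passed, TMM over all genes gave 2, DESeq2 gave 5, with Mycl added, and leaving out 1 library gave 1 to 4. For age in Irx5KO, 1 passed (Max) with a filter of 1 CPM in 3 libraries, with DESeq2 and with limma voom. For age in WT, with Mycn left out, Myc and Max passed with DESeq2, and Myc, Max, Mxd4 and Mxi1 with limma voom. Limma voom called 14333 genes there. TMM over all genes moved the median of well expressed genes to 0.34 at P18 and 0.40 for age in WT. Genes called over the whole table, 0 at P18 and at P20 over both codes in the fit reported, reached 183 and 209 under another alternative; in libraries 1 and 2, 161 were called and 32 to 668 under the alternatives, in libraries 3 and 4 1189 and 979 to 2613, for the difference between codes 1271 and 965 to 2405, for age in Irx5KO 386 and 101 to 1391, and for age in WT 48 and 0 to 14333. Leaving out 1 library gave 30 to 255, 424 to 1574, 649 to 1447, 56 to 418 and 5 to 88 for these 5 in turn. For age in WT, 17 were higher and 31 lower in the fit reported and 19 and 21 with median-ratio factors. With the replicate block, 3 members passed for the difference between codes, and Mga was the 1 of 4 lost (adjusted p = 0.0521); members called in the other comparisons were 2 in libraries 3 and 4 and 0 elsewhere.

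Other values, most of them near 0 and none called in the fit reported, changed sign in these cases, and the cause was not tested. Without P20 libraries 3 and 4, the P20 differences became -0.65 for Mycn, 1.01 for Myc, -1.53 for Mycl, 0.15 for Max, -1.13 for Mxd3, 0.10 for Mxd4, 0.52 for Mxi1, -0.37 for Mnt and 0.49 for Mga. Without the same libraries, chosen after seeing the data for the age comparisons, 233 genes were called for age in WT, Mxd4 and Mxi1 became -0.18 and 0.18 for age in Irx5KO, and Mxd1 and Mxi1 became 0.039 and -0.21 for age in WT. With TMM over all genes values became 0.24 for Max and 0.069 for Mxd3 at P18, -0.00057 for Mnt at P20, and 0.33 for Mxd1, 0.30 for Mxd4 and 0.24 for Mga for age in WT. For age in WT, Mxd1 became 0.023 and Mxd4 0.039 with median-ratio factors and with DESeq2, and limma voom gave -1.80 for Mxd3, 0.53 for Mxd4 and -0.42 for Mnt. For age in Irx5KO limma voom gave -0.0075 for Mxd4 and 0.0069 for Mxi1. With the replicate block Myc at P20 became 0.0051, Mxd4 for age in Irx5KO -0.095 and Mxd1 for age in WT 0.15, and with no code term Myc at P20 became 0.23. Without the receptor-rich libraries, Mxi1 at P18 became -0.43, Mxd1 at P20 -0.11, and Mxd1 and Mxi1 for age in WT 0.16 and -0.071.

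Leaving out 1 library at a time, values that changed sign ranged at P18 from -0.26 to 0.10 for Max, -0.81 to 0.037 for Mxd3 and -0.39 to 0.54 for Mxi1. At P20 they ranged from -0.47 to 0.32 for Myc, -0.54 to 0.96 for Mycl, -0.091 to 0.11 for Max, -0.12 to 0.37 for Mxd1, -0.063 to 0.29 for Mnt and -0.34 to 0.039 for Mga, and in libraries 1 and 2 from -0.12 to 0.36 for Mxd4 and -0.67 to 0.037 for Mnt. For age in Irx5KO Mxd4 ranged from -0.11 to 0.13. For age in WT the ranges were -0.25 to 0.79 for Mycl, -0.24 to 0.17 for Mxd1, -0.51 to 0.53 for Mxd3, -0.25 to 0.21 for Mxd4 and -0.17 to 0.30 for Mnt. Depth limits Mycn, Mycl and Mxd3 most, with as few as 37, 26 and 13 counts in a library.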
